A study of Mus musculus with 2 samples.

Results

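Liver endothelial cell genes were examined in laser-captured liver of PiZ mice. These mice carry a transgene of human ATZ, the Z mutant of alpha-1-antitrypsin, with the human promoter. Alpha-1-antitrypsin is a secreted protein, and its mutant form ATZ collects as globules inside hepatocytes. The list was set by gene name and holds 50 genes of sinusoidal, vascular and lymphatic endothelium with the ligands and receptors of vessel growth. Of these, 48 had a probe set that names 1 gene, among 30142 genes so measured, and each of the 48 had 1 probe set. The 2 groups were areas that contain globules (GC) and areas free of globules (GF), both from untreated C57BL/6 mice of 3 months that carry the transgene, kept on standard chow. No mice without the transgene were part of the comparison. Each group was 1 array of RNA pooled from 2 mice, with 50 ng of RNA per array. Areas were picked on Cresyl Violet sections by whether globules could be seen, and the labels call both kinds of area hepatocyte areas. With 1 array per group there is no replicate and no test, and each difference below compares 2 arrays.

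The sinusoids of the liver are lined by a specialised endothelium with open pores and little basement membrane, which takes up waste molecules from the blood through scavenger receptors. Its identity depends on transcription factors of the GATA, ETS, SOX and KLF families, and its growth and survival on vascular endothelial growth factor (VEGF) and on the angiopoietin and Tie system. In chronic injury this endothelium can lose its pores and gain features of continuous capillaries, a change called capillarization.

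Most endothelial transcripts differed by less than 2-fold between the 2 kinds of area. Of the 48 measured genes, 35 reached a floor of 4.76 in their mean log2 signal over both arrays, which is the median over all probe sets that name 1 gene. Of these 35, 33 lay within 2-fold, 1 was higher in globule-containing areas by 2-fold or more and 1 lower by as much, or 2.86% in each direction. Among all 15023 genes above the floor, 6.47% were higher and 5.26% lower by 2-fold or more. None of the 35 was 4-fold apart, against 1.42% of all genes higher and 1.32% lower by 4-fold or more. At 1.5-fold, 4 of the 35 were higher and 3 lower, against 16.0% and 11.9% of all genes. The median log2 difference, globule-containing minus globule-free, was -0.06 over the 35 genes and 0.05 over all genes above the floor. The differences of the 35 genes ran from -1.26 to 1.20, with 16 above and 19 below 0, and 28 of them (80.0%) lay within 1.5-fold, against 72.1% of all genes above the floor. In tissue captured in bulk, fewer endothelial cells and less RNA per cell cannot be told apart.

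**Figure D1:**
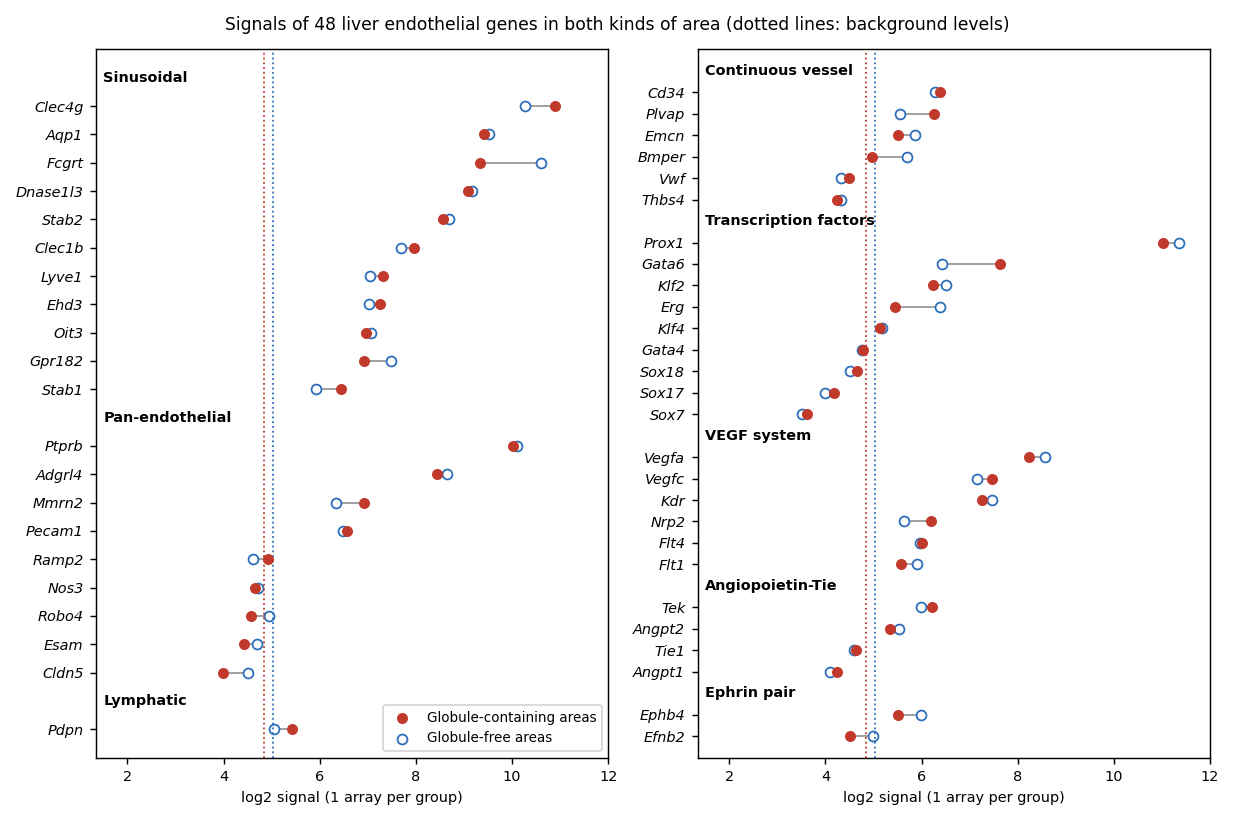
Log2 signal (horizontal axis) of each of the 48 endothelial genes, grouped by role, with filled points for globule-containing and open points for globule-free areas, 1 array each, and dotted lines at the background levels of 4.85 (globule-containing) and 5.04 (globule-free). Most pairs of points lie close together, and the longest lines belong to Fcgrt, Gata6 and Erg.

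The label of the list was checked first. Defining endothelial genes were well above background in both captures, where background is the level below which 95% of 1719 probe sets for odorant and vomeronasal receptors lie. The scavenger receptor Stab2 had 8.56 in GC and 8.69 in GF areas, and the VEGF receptor Kdr had 7.25 in GC and 7.47 in GF areas. In all, 34 of the 48 genes were above background on both arrays. Ramp2 was above it only in globule-containing areas, at 4.92, against 4.61 in globule-free areas, and gives no fold because its globule-containing signal is under the globule-free background of 5.04. The other 13 were at background on both arrays and give no fold. Among those 13 are Vwf, Nos3, Cldn5, Esam, Robo4 and Tie1, genes used elsewhere to recognise endothelium. All 11 sinusoidal genes were among the 34 above it.

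Upstream sequences are shown for 3 sinusoidal genes that differ in their values, namely Fcgrt, which was lower in globule-containing areas, and Clec1b and Aqp1, which were 1.21-fold higher and 1.07-fold lower. Each run is the 250 bases before the gene's start in RefSeq (GRCm38.p6), read 5′ to 3′ on the minus strand for Fcgrt (chr7:45103823-45104072) and on the plus strand for Clec1b (chr6:129397047-129397296) and Aqp1 (chr6:55336049-55336298). Capitals mark the letters AGGAAG, a core bound by ETS factors such as Erg.
Fcgrt: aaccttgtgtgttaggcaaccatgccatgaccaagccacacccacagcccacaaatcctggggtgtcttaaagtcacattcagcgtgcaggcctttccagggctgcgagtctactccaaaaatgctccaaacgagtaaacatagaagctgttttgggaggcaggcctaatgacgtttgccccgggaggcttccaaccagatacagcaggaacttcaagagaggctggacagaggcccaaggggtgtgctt
Clec1b: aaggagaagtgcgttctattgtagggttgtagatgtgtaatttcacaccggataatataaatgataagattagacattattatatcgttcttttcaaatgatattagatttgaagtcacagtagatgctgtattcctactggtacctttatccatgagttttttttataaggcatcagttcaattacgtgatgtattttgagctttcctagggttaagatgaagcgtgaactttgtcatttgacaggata
Aqp1: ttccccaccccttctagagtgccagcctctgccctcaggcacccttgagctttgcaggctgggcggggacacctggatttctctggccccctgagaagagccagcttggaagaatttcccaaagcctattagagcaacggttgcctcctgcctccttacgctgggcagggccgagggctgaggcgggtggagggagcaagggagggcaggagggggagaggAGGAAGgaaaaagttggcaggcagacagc
AGGAAG and AGATAA, a core bound by GATA factors, were searched on both strands, and their matches overlapped in 0 windows of these genes. RefSeq windows were listed for 31 of the 50 genes. AGGAAG was found in the windows of 14 of these 31 genes, or in 40.5% of their 37 windows, against 29.5% of all 32851 windows of the same length. AGATAA was found for 2 of the 31, Erg and Vegfa, or in 5.41% of windows, against 9.99% of all. A match is only a match of letters, and neither AGGAAG nor AGATAA was found in the windows of Fcgrt and Clec1b. Only these exact letters were searched, so other forms of either site could have been missed.

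Sinusoidal genes went both ways by small amounts, apart from Fcgrt. All 11 were above the floor and above background on both arrays, with a median difference of -0.06, and 10 of the 11 lay within 2-fold. The 1 gene lower by 2-fold or more was 9.09% of them, against 5.26% of all genes above the floor. Fcgrt (probe set TC0700002989.mm.1), the heavy chain of the neonatal Fc receptor that recycles immunoglobulin G and albumin, had 9.33 in GC and 10.59 in GF areas, 2.39-fold lower. Hepatocytes and macrophages express Fcgrt as well. Its difference was lower than that of all but 3.52% of genes above the floor.

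Clec4g, Stab1, Stab2, Lyve1 and Clec1b, scavenger and lectin receptors of the sinusoid, lay between 1.10-fold lower and 1.53-fold higher in globule-containing areas. Clec4g, a C-type lectin of sinusoidal endothelium, had 10.89 in GC against 10.28 in GF areas, 1.53-fold higher. Stab1, a scavenger receptor related to Stab2, had 6.44 in GC against 5.93 in GF areas, 1.43-fold higher, whereas Stab2 was 1.10-fold lower. Lyve1, a hyaluronan receptor of sinusoids and lymphatics, had 7.31 in GC and 7.05 in GF areas. Clec1b, the lectin receptor for podoplanin, had 7.96 in GC and 7.69 in GF areas. Stab1 and Stab2 thus differed in sign, and none of these 5 receptors was 2-fold apart. The difference of Stab2, -0.13, is smaller in size than 0.17, the median gap between 2 probe sets of 1 gene. Mrc1, the mannose receptor of sinusoidal endothelium and macrophages, which is outside the list and was chosen after its value was seen, had 9.51 in GC and 10.01 in GF areas, 1.41-fold lower.

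The other sinusoidal genes differed as little, with Gpr182 the most. Gpr182, an endothelial receptor that scavenges chemokines, had 6.92 in GC and 7.48 in GF areas, 1.48-fold lower. Dnase1l3, a secreted nuclease, had 9.09 in GC and 9.16 in GF areas. Aqp1, a water channel also made by cholangiocytes, had 9.41 in GC and 9.51 in GF areas. Dnase1l3 and Aqp1 were thus nearly level between the areas. Ehd3, which acts in endocytic recycling, had 7.24 in GC and 7.03 in GF areas, and Oit3 had 6.97 in GC and 7.07 in GF areas.

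Genes shared by most endothelium showed small differences, and many were too dim to compare. Of 10 such genes, 9 had a probe set that names 1 gene and 4 were above the floor, with a median difference of -0.01. Ptprb, the vascular endothelial tyrosine phosphatase, had 10.02 in GC and 10.11 in GF areas. Pecam1, the junctional adhesion molecule CD31, had 6.56 in GC and 6.48 in GF areas, and Adgrl4, an adhesion receptor of angiogenic endothelium, had 8.43 in GC and 8.65 in GF areas. Mmrn2, an endothelial matrix glycoprotein, had 6.93 in GC against 6.34 in GF areas, a difference of 0.59. The sign of Pecam1 turned under quantile normalization. Below the floor, Cldn5, a tight junction protein, had 3.99 in GC and 4.51 in GF areas, Esam 4.42 in GC and 4.70 in GF areas, Robo4 4.57 in GC and 4.94 in GF areas, and Nos3, the endothelial nitric oxide synthase, 4.65 in GC and 4.72 in GF areas. All 4 were at background on both arrays. Egfl7, a secreted vessel factor, shares its probe set with the microRNA gene Mir126a, and that probe set had 5.21 in GC and 5.50 in GF areas.

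Genes of continuous vessels, some of which mark capillarized sinusoids, did not share a direction. Of 6, 4 were above the floor, with a median difference of -0.13. Plvap, which forms the diaphragms of fenestrae and caveolae, had 6.26 in GC and 5.55 in GF areas, 1.64-fold higher. Cd34, a sialomucin of capillaries, had 6.38 in GC and 6.29 in GF areas. Emcn, another endothelial sialomucin, had 5.51 in GC and 5.85 in GF areas, 1.27-fold lower. Plvap and Emcn therefore differed in opposite directions, with Cd34 between them. Bmper, a secreted regulator of bone morphogenetic protein (BMP) signalling, had 4.96 in GC against 5.70 in GF areas, 1.67-fold lower and close to background in globule-containing areas. Vwf, the clotting protein of larger vessels, had 4.50 in GC and 4.32 in GF areas, and Thbs4, a matrix thrombospondin, had 4.24 in GC and 4.32 in GF areas, both at background on both arrays.

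**Figure D2:**
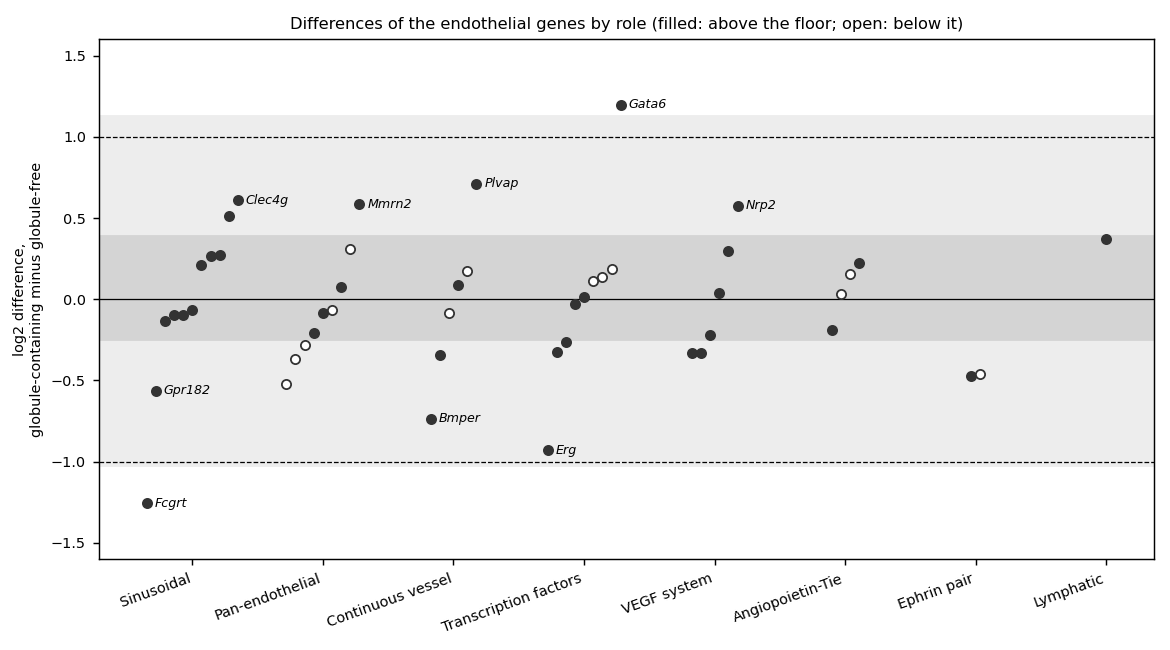
Log2 difference, globule-containing minus globule-free (vertical axis), of each endothelial gene by role, with filled points above and open points below the floor. The dark and light bands hold the middle 50% and 90% of all genes above the floor, dashed lines mark 2-fold, and only Gata6 and Fcgrt lie outside the dashed lines.

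Among the transcription factors, Gata6 and Erg differed in opposite directions. Gata6 (probe set TC1800000091.mm.1), a zinc finger factor of endoderm and mesoderm, had 7.63 in GC and 6.43 in GF areas, 2.29-fold higher. It was the only gene of the list higher by 2-fold or more, and it is also expressed by hepatocytes, stellate cells and macrophages. Erg, an ETS factor that maintains endothelial identity, had 5.45 in GC against 6.38 in GF areas, 1.91-fold lower. Of the genes of the list taken as restricted to endothelium among liver cells, Erg differed the most, and its difference was lower than that of all but 6.11% of genes above the floor. The other factors above the floor differed less.

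Klf2, a factor induced by blood flow, had 6.24 in GC and 6.50 in GF areas, 1.20-fold lower. Klf4, a related factor, had 5.14 in GC and 5.17 in GF areas. Gata4, a main regulator of sinusoidal identity, had 4.78 in GC and 4.77 in GF areas, at background on both arrays although just inside the floor, and its sign turned under median centring. Ramp2, the partner of the adrenomedullin receptor, was just outside it, with a mean of 4.76. Prox1, the lymphatic fate factor, had 11.02 in GC and 11.34 in GF areas. Hepatocytes express Prox1 as well, so its level does not measure lymphatics. The SOX factors of the F group (Sox7, Sox17 and Sox18) were at background on both arrays, with values from 3.62 to 4.66 in globule-containing areas and from 3.51 to 4.52 in globule-free areas.

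In the VEGF system, all 6 genes measured on their own probe sets lay within 1.5-fold, against 72.1% of all genes above the floor. Their median difference was -0.09. Of the ligands, Vegfa, which hepatocytes supply to the sinusoid, had 8.24 in GC and 8.57 in GF areas, 1.26-fold lower. Vegfc, the lymphatic ligand, had 7.45 in GC and 7.16 in GF areas, 1.23-fold higher. Both ligands stayed well above background in both kinds of area. Of the receptors, Kdr, the main signalling receptor, was 1.17-fold lower. Flt1, which binds VEGF and limits its action, had 5.57 in GC and 5.90 in GF areas, 1.26-fold lower. Flt4, the receptor for Vegfc, had 6.00 in GC and 5.96 in GF areas, and its sign turned under each of 3 other scalings (quantile, loess and median centring). Nrp2, a co-receptor for Vegfc, had 6.21 in GC against 5.63 in GF areas, 1.49-fold higher. Nrp1 shares its probe set with the microRNA gene Mir1903, and that probe set had 7.76 in GC and 8.09 in GF areas.

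The angiopoietin and Tie genes and the ephrin pair showed no 2-fold difference either. Tek, the angiopoietin receptor Tie2, had 6.21 in GC and 5.99 in GF areas, 1.17-fold higher. Angpt2, the ligand that destabilises vessels, had 5.34 in GC and 5.53 in GF areas, 1.14-fold lower. Angpt1, the stabilising ligand, had 4.24 in GC and 4.09 in GF areas, and Tie1, the co-receptor, had 4.63 in GC and 4.60 in GF areas, both at background. Ephb4, the venous receptor, had 5.51 in GC against 5.99 in GF areas, 1.39-fold lower. Efnb2, its arterial ligand, had 4.52 in GC and 4.98 in GF areas and was at background on both arrays. Pdpn, podoplanin of lymphatic endothelium and fibroblasts, had 5.41 in GC and 5.04 in GF areas, 1.29-fold higher, with a globule-free signal just above background.

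**Figure D3:**
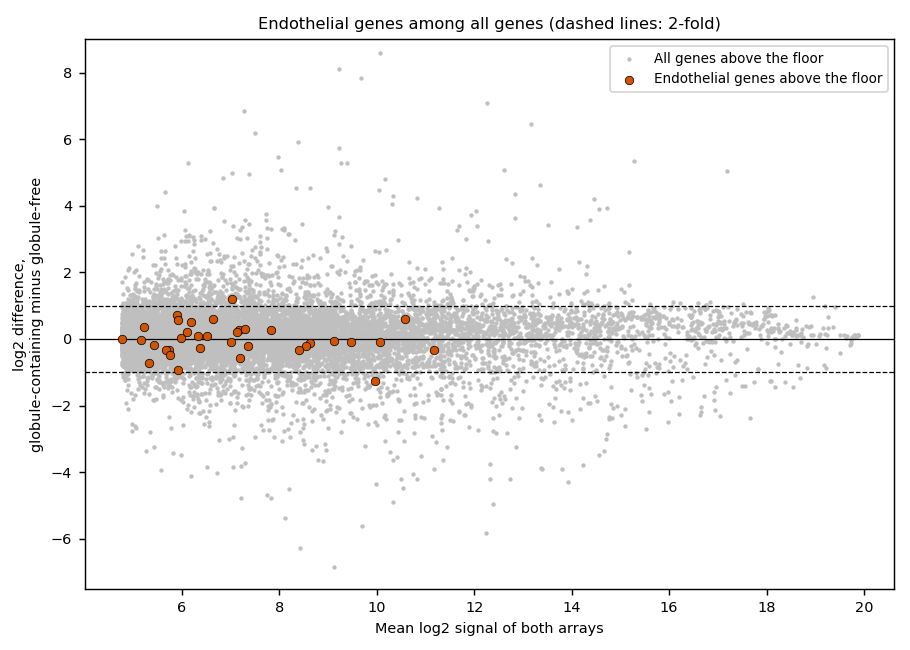
Log2 difference, globule-containing minus globule-free (vertical axis), against the mean log2 signal of both arrays (horizontal axis) for the 15023 genes above the floor, with the 35 endothelial genes in colour and dashed lines at 2-fold. The endothelial genes have mean signals from 4.77 (Gata4) to 11.18 (Prox1) and spread around 0.

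Genes of the list that other liver cells also express were set beside those taken as restricted to endothelium. The median difference was -0.06 both for the 21 restricted genes and for the 14 shared genes above the floor. None of the 21 restricted genes was at least 2-fold apart. Both genes that were, Gata6 and Fcgrt, belong to the shared ones. Of the 14 shared genes, 1 (7.14%) was thus higher and 1 (7.14%) lower, against 6.47% and 5.26% of all genes above the floor. Counts this small do not tell the restricted and shared genes apart. The split was set from general knowledge and not from these data. Which cells carry any of these transcripts in these areas, restricted or shared, was not measured.

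A second list held 25 endothelial genes, none of them among the 50. Of 17 above the floor, 4 (23.5%) were higher and 1 (5.88%) lower by 2-fold or more in globule-containing areas, against 6.47% and 5.26% of all genes, with a median difference of 0.37. Cd36, a fatty acid and scavenger receptor, had 13.86 in GC and 11.44 in GF areas, 5.34-fold higher. Eng, endoglin, a co-receptor for BMP ligands, had 9.95 in GC against 8.57 in GF areas, 2.61-fold higher. Lifr, a cytokine receptor, had 10.65 in GC against 12.94 in GF areas, 4.88-fold lower. Hepatocytes, macrophages or stellate cells express each of these genes too. Of adhesion molecules for leukocytes that were chosen after their values were seen, Vcam1 was 2.04-fold higher and Icam1, whose globule-free signal was at background, at least 2.06-fold higher. Cdh5, the cadherin of endothelial junctions, had 8.11 in GC against 8.91 in GF areas, 1.74-fold lower.

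Signalling genes of vessels outside the list lay mostly within 2-fold, with BMP genes among the exceptions. Of 20 genes of Notch and BMP signalling, 14 were above the floor, 3 of them higher and 1 lower by 2-fold or more. These were 21.4% and 7.14%, against 6.47% and 5.26% of all genes above the floor. Gdf2, which encodes the endothelial ligand BMP9 and is made by stellate cells, had 8.59 in GC and 6.53 in GF areas, 4.16-fold higher. Id1, a target of BMP signalling in endothelium, had 5.29 in GC against 6.32 in GF areas, 2.05-fold lower. Id3, a related target chosen after its value was seen, had 7.08 in GC against 6.07 in GF areas, 2.01-fold higher. The ligand, its co-receptor Eng and these targets therefore did not share a direction. Of further VEGF, angiopoietin and semaphorin genes, 7 of 14 measured were above the floor. By deposited values, 1 of the 7 (14.3%) was at least 2-fold higher and none was lower by as much. That gene, Svep1, a ligand of Tie1, differed by 1.02, with a GF signal below background, and was only at least 1.30-fold higher when its globule-free signal was raised to background. Plxnd1, an endothelial semaphorin receptor, had 7.45 in GC against 6.57 in GF areas, 1.84-fold higher. Vegfd, a lymphatic ligand, had 6.67 in GC against 6.04 in GF areas, 1.55-fold higher.

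Among signals that endothelium and its neighbours send to hepatocytes, Rspo3 and Hgf were higher and the Wnt ligands Wnt2 and Wnt9b were at background. Of 16 such genes and markers of endothelial position in the lobule, 10 were above the floor and 2 were higher and none lower by 2-fold or more. Over all genes above the floor, the shares were 6.47% higher and 5.26% lower. Rspo3, which strengthens Wnt signals around the central vein, had 8.86 in GC and 5.82 in GF areas, 8.24-fold higher. Hgf, hepatocyte growth factor, had 10.56 in GC against 8.08 in GF areas, 5.58-fold higher. Stellate cells express both. Dkk3, a secreted glycoprotein, was at least 1.30-fold higher, against a globule-free signal at background.

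Markers of several other cell types had larger differences than the endothelial genes. For comparison, 6.47% of all genes above the floor were higher and 5.26% lower by 2-fold or more. For stellate cells, 12 of 14 genes above the floor were higher by 2-fold or more in globule-containing areas, with a median difference of 2.05 and array medians of 7.71 (globule-containing) and 5.76 (globule-free). With dim values raised to background, 11 were. Lrat, which stores retinol as esters, was 11.0-fold, Dcn, decorin, 10.7-fold and Lum, lumican, 15.2-fold higher. For lipid-associated macrophages, 7 of 11 were higher by 2-fold or more, with a median difference of 1.90, and Gpnmb, Mmp12 and Cd63 had differences of 8.11, 4.53 and 4.23. Cd68, a lysosomal macrophage protein, was 13.3-fold higher. Resident Kupffer cell genes split, with 5 of 11 lower and 1 higher by 2-fold or more. Clec4f was 8.28-fold, Cd5l 6.41-fold and Vsig4 5.44-fold lower. Timd4 and Marco, 3.93-fold and 2.92-fold lower, and Csf1r, the receptor for macrophage growth factor and 2.04-fold higher, were chosen after their values were seen.

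Hepatocyte genes had a median difference of -1.09, with 5 of 10 at least 2-fold lower, against 5.26% of all genes above the floor. Alb was at the ceiling of both arrays and gives no fold, and Ttr, transthyretin, was at the ceiling in globule-free areas. Without Alb the median was -1.38, and without both it was -1.40, alternatives chosen after seeing the data. Pck1, Cps1 and Cyp2f2 differed by -2.72, -2.37 and -2.31. Of genes chosen after their values were seen, Tat and Serpina1c differed by -1.41 and -1.38, whereas Cyp2e1, a cytochrome P450 of pericentral hepatocytes, differed by 0.12. Of 7 cholangiocyte genes measured, 5 were above the floor. Krt19, the bile duct keratin, had 5.11 in GC against 4.77 in GF areas, at least 1.05-fold higher. Epcam had 5.77 in GC against 4.81 in GF areas, at least 1.67-fold higher. The globule-free signals of Krt19 and Epcam were at background. Muc1 was at least 1.13-fold higher and Tff3 at least 26.9-fold lower. The part of these cell types in the values of Fcgrt, Gata6 and the other shared genes was not tested. Hgf is itself 1 of the stellate cell markers, whose median difference was 1.93 without it, a value computed after seeing the data. The part of stellate cells in the higher signals of Rspo3, Hgf and Gdf2 was not tested either.

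**Figure D4:**
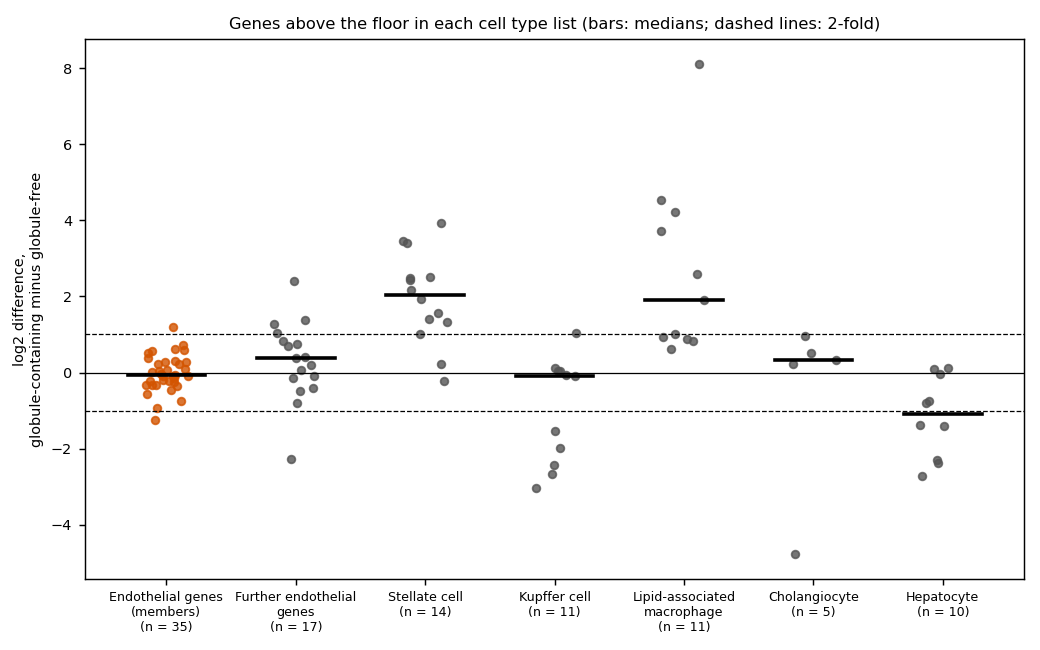
Log2 difference, globule-containing minus globule-free (vertical axis), of each gene above the floor in 7 cell type lists, with bars at the medians and dashed lines at 2-fold. The 35 endothelial genes cluster around a median of -0.06, whereas stellate cell genes have a median of 2.05 and hepatocyte genes, Alb included, -1.09.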

How the data were processed

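The authors deposited log2 signals, 1 per probe set, for 72688 probe sets on each of 2 arrays. Per the labels' protocols, RNA from laser-captured areas was isolated with a PicoPure kit, then amplified and biotin-labelled by NuGEN's Ovation WTA System V2. The Transcriptome Analysis Console is named in the submitters' processing notes. The sources used here do not give the background correction, normalization or genome build. The log2 scale was read from the values, with maxima of 19.93 (globule-containing) and 19.80 (globule-free). Probe sets within 0.2 of these were taken as saturated. An array has no read depth, and precision is limited by the number of arrays.

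Of the probe sets, 30604 named 1 gene, 2146 several and 39938 none listed here. Only the first were used, with 827 symbols updated through Entrez IDs to RefSeq (GRCm38.p6), which gave Adgrl4 its name. Probe sets of 1 gene were averaged. No test is possible with 1 array per group. Where 1 array lay at or below background, the fold is a lower bound, computed with background in place of the dim value. Counts at 2-fold use deposited values.

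The 50 genes and all lists were chosen with earlier results of these data known. Named genes were every member, the 3 largest absolute differences above the floor in each other list, and Cdh5, Eng, Lrat, Dcn, Clec4f, Cd68, Alb and Krt19. Genes outside this rule, including Wnt2 and Wnt9b, were named after their values were seen. Alternatives were the floor, scaling, fold, probe set choice, dim values and the restricted genes alone. The software was Python 3.11.15, matplotlib 3.10.9, numpy 2.4.6, pandas 2.3.3 and statsmodels 0.14.6.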

Additional observations from a re-analysis of the deposited data

How the results depend on the processing

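The median difference of the endothelial genes was below 0 in every setting run for it, against -0.06 as reported. It ran from -0.16 with loess scaling to -0.05 with no floor, and was -0.14 with quantile normalization. All these medians were nearer 0 than 0.17, the median gap between 2 probe sets of 1 gene. That gap describes single genes on the same arrays and does not measure the spread of a median over many genes. Over all genes the median was -0.06 with no floor, below that of the endothelial genes, and -0.004 with loess scaling. Under the 3 scalings tried (quantile, loess and median centring), 32 of the 35 genes above the floor kept their sign, and the 3 that did not, Flt4, Gata4 and Pecam1, differed by at most 0.08 as reported. The counts of 1 gene higher and 1 lower by 2-fold or more held under each floor, scaling, probe set and background setting. At 1.5-fold they were 4 higher (Gata6, Plvap, Clec4g and Mmrn2) and 3 lower (Fcgrt, Erg and Bmper), against 16.0% and 11.9% of all genes, and at 4-fold they were 0 and 0. The median of the transcription factors, -0.15 as reported, was 0.44 with the floor at the 75th percentile, which leaves only Gata6 and Prox1. With dim values raised to background, 11 of 48 genes moved by more than 0.17, the median gap between both probe sets of the 177 genes that have 2. In that setting the difference of Ramp2 turned to -0.12, against 0.31 as deposited. The 13 genes at background on both arrays, Gata4 among them, all took the value -0.19, which the 2 background levels alone set. The sign of 7 of them turned for that reason, which says nothing about these genes. None of the 34 genes above background on both arrays turned. No paired analysis was possible because each group is 1 array, and no array could be left out for the same reason. Low signal limits what can be said of the 13 genes at background on both arrays.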

Other observations

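Genes of vascular tone and hemostasis went both ways. Of 8 above the floor, 1 was higher and 1 lower by 2-fold or more in globule-containing areas. That is 12.5% in each direction, against 6.47% and 5.26% of all genes above the floor. Ednrb, an endothelin receptor of stellate cells and endothelium, had 10.50 in GC and 8.56 in GF areas, 3.82-fold higher. Proc, protein C of hepatocytes, had 11.68 in GC against 13.01 in GF areas, 2.51-fold lower. Plat, the tissue plasminogen activator, was at least 1.42-fold higher, its globule-free signal being at background. Among genes of the basement membrane 2 of 9 above the floor were higher and 1 lower by 2-fold or more in globule-containing areas. These were 22.2% and 11.1%, against 6.47% and 5.26% of all genes above the floor. The differences of 8 of the 9 lay above 0, against 54.5% of all genes above the floor. Their median was 0.44, against 0.05. Nid1, nidogen, had 8.51 in GC against 7.05 in GF areas, 2.76-fold higher. Sparc, a collagen-binding matrix protein, had 13.30 in GC against 11.81 in GF areas, 2.80-fold higher, and Fn1, fibronectin, had 14.81 in GC against 15.82 in GF areas, 2.01-fold lower. Stellate cells express Nid1 and Sparc as well, and stellate cell markers had a median difference of 2.05. Their part in these values was not tested.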
